A study of Gallus gallus with 9 samples.

Results

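The genes described here code for collagens, laminins, matrix metalloproteinases (MMPs), the ADAMTS family and 5 further matrix proteins, measured in circulating cells of the chick embryo. They were taken by symbol: every probe set of the Affymetrix chicken array with exactly 1 annotated symbol that began with COL, LAMA, LAMB, LAMC or MMP followed by a digit, or with ADAMTS, or that was LUM, DCN, FN1, POSTN or THBS4. This gave 256 probe sets of 92 genes, out of 38439 probe sets and 13009 symbols on the array, and each gene was represented by the probe set with the highest mean log2 signal over the blood arrays. COL4A3BP met the rule by its name only, since it codes for a ceramide transporter and not for a collagen chain, and THBS4 stood in a gene list that the study chose on these same arrays, so its value is no independent evidence.

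Blood drawn from the heart of chick embryos at embryonic day 6 (E6) and embryonic day 4 (E4) was parted on a density gradient into a lighter non-red blood cell fraction (nRBC) and a heavier red blood cell fraction (RBC). Each fraction and stage had 2 arrays, from separate pools of embryos, which made 4 nRBC arrays, 4 RBC arrays and 1 array of embryonic heart. The heart was included as a negative control for tissue carried into the blood, and it was E6 by its sample title, although the column heading of the deposited table reads E4. No strain, sex or treatment was given for any group, and nRBC is a gradient layer and not a sorted cell type.

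The extracellular matrix is the protein scaffold around cells. Fibrillar collagens form its cables, type IV collagen and laminins form the basement membrane sheet under epithelia, endothelia and muscle, and small proteoglycans such as decorin and lumican coat collagen fibrils. MMPs and ADAMTS proteases cut this scaffold, and the main producers of fibrillar collagen in an embryo are mesenchymal cells such as fibroblasts and the cells of the heart cushions.

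All values below are log2 of the MAS5 signal after quantile normalization, a scale on which a difference of 1 is a doubling and on which levels can be compared between arrays for 1 gene but not between genes. Sums over marker lists are of linear signals instead. Each signal carries a detection call (Present, Marginal or Absent). Present calls covered 34.0 to 36.0% of probe sets on nRBC arrays, 22.4 to 29.4% on RBC arrays and 40.5% on the heart array. All 7 red cell markers measured were Present on every nRBC and RBC array. The 4 globin probe sets lay at 13.04 to 13.77 on nRBC arrays and 12.97 to 13.53 on RBC arrays. By quantitative PCR the study found hemoglobins significantly higher in RBCs, and its nRBCs were negative for benzidine. These array values are thus not read as equal globin content of the fractions. EPB42 (-1.15, limma adjusted p = 0.203) and SPTB (-1.43, limma adjusted p = 0.272) had lower means in nRBCs and did not pass. Non-red blood markers such as PTPRC and ITGB3 had summed linear signals of 11000 to 14500 on nRBC arrays and 107 to 188 on RBC arrays. Of the 8 measured, 7 were higher in nRBCs, and SPI1 did not pass (2.10, limma adjusted p = 0.0561). PTPRC, ITGB3, CD36, RGS18 and RAC2 also stood in the gene list that the study chose on these same arrays. SPI1 stood there too, by another probe set. As these were bulk samples, fewer cells of a type and less RNA per cell cannot be told apart.

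Matrix transcripts were detected mainly in the lighter fraction. Of the 92 genes, 53 (57.6%) were Present on at least 1 nRBC array, against 64.4% of all symbols. Only 19 (20.7%) were Present on at least 1 RBC array, against 52.6% of all symbols, and 50 (54.3%) were Present on heart, against 60.3%. No blood array had a Present call for 38 (41.3%), against 33.0%, and 32 (34.8%) were Present on none of the 9 arrays, against 29.3%. The 4 nRBC arrays had between 36 and 45 of these genes Present and the 4 RBC arrays between 7 and 12. In limma, with Benjamini-Hochberg adjustment over all 38439 probe sets, 20 genes (21.7%) were higher in nRBCs than in RBCs at an adjusted p under 0.05 and 0 were lower. Over all symbols, 6.86% were called higher and 0.669% lower, and over all probe sets 4.56% were called higher and 0.809% lower. The 20 include all 5 genes that entered by name, LUM, DCN, FN1, POSTN and THBS4. The genes were chosen with earlier results of these data known, so their share is not independent of that choice. At an unadjusted p under 0.05 in limma, 31 genes (33.7%) were higher and 2 (2.17%) were lower, against 13.8% and 8.93% of all symbols, and the methods' t-test at the same unadjusted threshold gave 2 lower. The fractions did not overlap, with nRBCs above, for 25 genes (27.2%), against 11.8% of all symbols. Arrays also differed in scale: among the 5 blood arrays with many signals under 1, 14 genes passed. With array scale as a block in the limma fit the count was 20. The shares over all symbols were not counted under these settings. The median difference, nRBC minus RBC, was 0.37 over the 92 genes and -0.13 over all symbols.

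The calls were counted by role, beside the 6.86% of all symbols called higher. Fibrillar collagens gave 6 of 9, the 5 glycoproteins and proteoglycans gave 5 of 5, MMPs gave 3 of 14, basement membrane collagens 2 of 9, other collagens 3 of 23 and laminins 1 of 11 (5 alpha, 4 beta and 2 gamma chains). None of the 17 ADAMTS proteases and none of the 3 ADAMTS-like proteins passed the test on the chosen probe set. ADAMTS15 and ADAMTS9 each had a further probe set called higher. At an unadjusted p under 0.05 in limma, 2 of the 17 and 1 of the 3 were higher, against 13.8% of all symbols. Roles were not tested against these shares, and counts such as 0 of 17 and 1 of 11 lie near them.

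**Figure D1:**
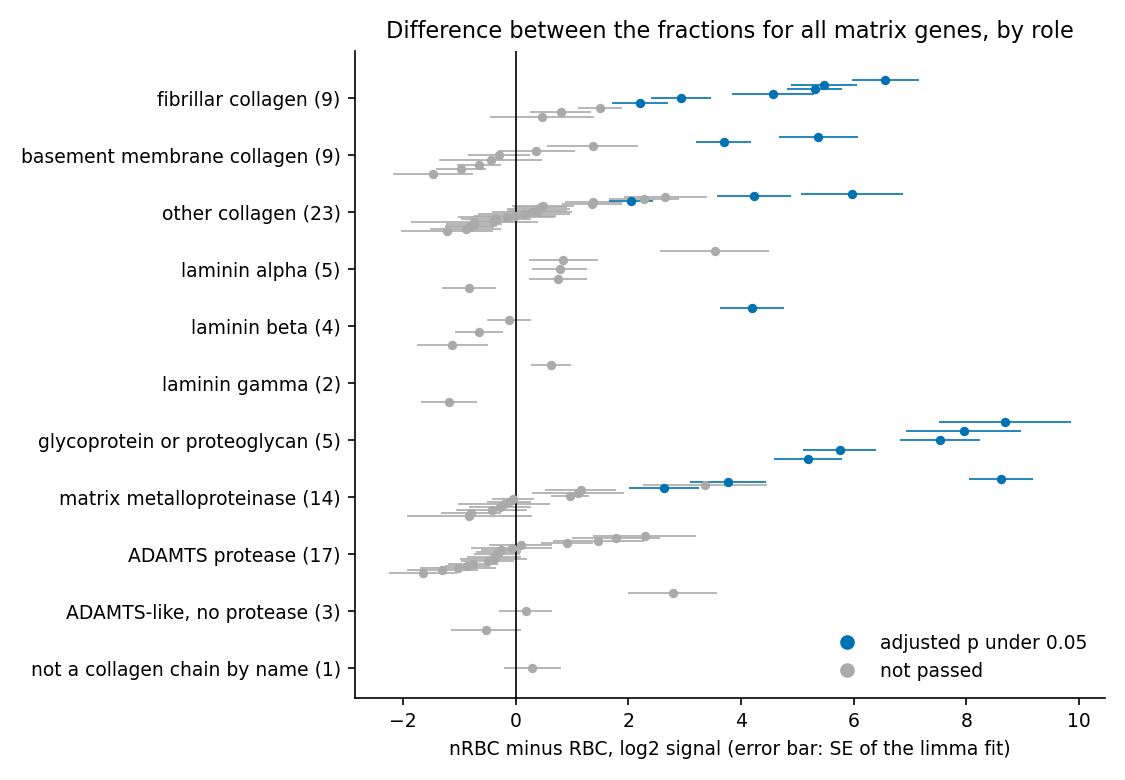
The difference nRBC minus RBC in log2 signal (x axis) is plotted for each of the 92 genes by role, with the standard error of the limma fit as error bar. Blue points are the 20 genes at an adjusted p under 0.05, all right of 0, and grey points the 72 that did not pass.

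Of the 20 genes higher in nRBCs, 17 were Present on all 4 nRBC arrays and 18 were Present on no RBC array, against 70.0% Present on no RBC array among all symbols called higher. For these 18 the fitted difference rests on RBC signals below detection, so a lower bound is given as "at least N-fold": the nRBC mean over a limit that is, on each RBC array, the higher of the gene's own signal and the lowest signal called Present there. These values ran from 4.14-fold to 88.13-fold. For COL1A2, COL2A1, COL24A1, COL6A3 and FN1 every RBC signal lay above the lowest Present signal. Their value is thus the fitted fold and no lower bound, and it is given as "fitted". The bounds depend on where the limit is placed. With the limit at the 95th percentile of Absent signals the bounds were 9.01-fold for MMP2, 7.48-fold for LUM and 7.06-fold for COL1A2. They were 1.83-fold for COL6A3, 1.20-fold for COL2A1 and 1.02-fold for COL24A1. The highest was 19.9-fold for FN1, and MMP16 and MMP24 had none above 1.

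The fibrillar collagens gave the most calls of any role. COL1A1 and COL1A2 code for the 2 chains of type I collagen, the main fibre of connective tissue. COL1A1 measured 9.40 and 7.17 on the E6 nRBC arrays and 8.45 and 8.91 on the E4 nRBC arrays, against 3.83 and 5.58 on the E6 RBC arrays and 2.32 and 3.95 on the E4 RBC arrays. COL1A2 measured 8.66 and 8.21 (E6 nRBC) and 9.17 and 9.46 (E4 nRBC), against 3.63 and 2.55 (E6 RBC) and 3.66 and 4.42 (E4 RBC). Both genes were Present on all nRBC arrays and on no RBC array, and the fractions did not overlap. The difference was 4.57 (SE 0.73, limma adjusted p = 0.00643, at least 20.7-fold) for COL1A1. For COL1A2 it was 5.31 (SE 0.49, limma adjusted p = 4.0e-04, fitted 39.7-fold).

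COL3A1, the chain of type III collagen found beside type I in soft tissue, measured 10.71 and 9.00 (E6 nRBC) and 10.17 and 9.87 (E4 nRBC), against 3.39 and 5.60 (E6 RBC) and 3.85 and 5.01 (E4 RBC). It was Present on 1 RBC array, E6 replicate 2, and differed by 5.47 (SE 0.59, limma adjusted p = 8.2e-04). COL5A1, a chain of type V collagen that helps to set fibril diameter, measured 9.35 and 6.79 (E6 nRBC) and 7.58 and 7.51 (E4 nRBC), against 0.71 and 0.81 (E6 RBC) and 1.39 and 2.07 (E4 RBC). The difference for COL5A1 was 6.56 (SE 0.59, limma adjusted p = 3.6e-04, at least 32.9-fold), and its widest gap within nRBCs was between the 2 E6 arrays.

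Smaller differences were found for COL2A1, the cartilage collagen, and COL24A1, a minor fibrillar chain. COL2A1 averaged 6.31 ± 0.71 in nRBCs and 3.39 ± 0.80 in RBCs (SD, n = 4 each). The difference was 2.93 (limma adjusted p = 0.0118, fitted 7.61-fold). COL24A1 averaged 6.08 ± 0.78 in nRBCs and 3.87 ± 0.60 in RBCs, a difference of 2.21 (limma adjusted p = 0.0356, fitted 4.61-fold). The COL24A1 call did not hold without any 1 of 6 arrays, namely E6 nRBC replicate 1, both E4 nRBC arrays, both E6 RBC arrays or E4 RBC replicate 2, where its difference was 1.88 to 2.37 and its limma adjusted p 0.0531 to 0.107, nor with array scale as a block (2.23, limma adjusted p = 0.0580). Among the 3 fibrillar chains that did not pass, COL11A1 (1.49, adjusted p = 0.0631) had no overlap between fractions, COL5A2 (0.80, adjusted p = 0.456) was Present on 4 nRBC and 2 RBC arrays, and COL27A1 was Absent on all 9 arrays.

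**Figure D2:**
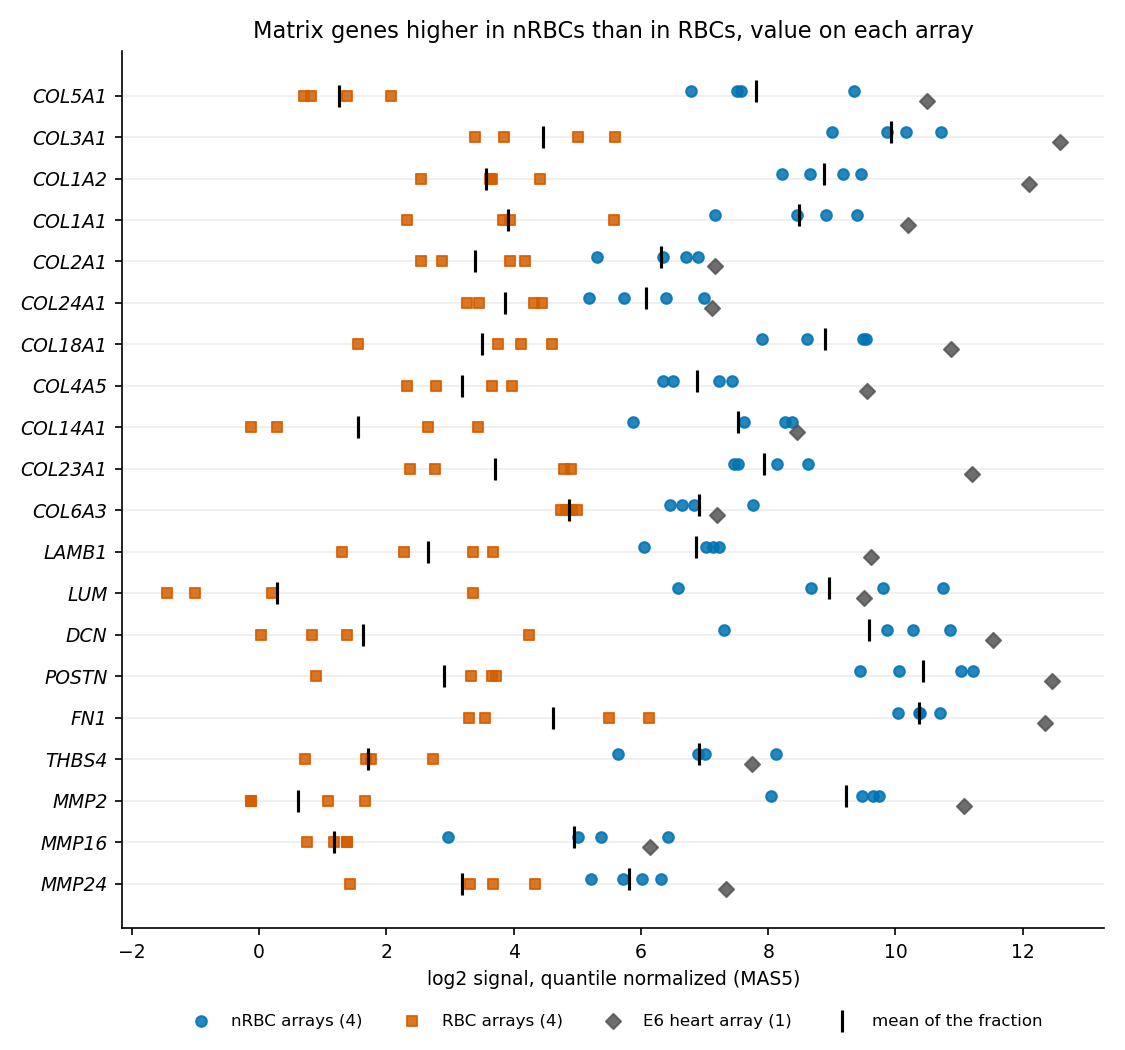
Log2 signal (x axis) on each of the 4 nRBC arrays (blue circles), 4 RBC arrays (orange squares) and the 1 heart array (grey diamonds) for the 20 genes higher in nRBCs, with black bars at the nRBC and RBC means. No nRBC point of any of the 20 genes overlaps an RBC point of the same gene, and the heart diamond lies right of the nRBC mean for all 20.

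The 5 glycoproteins and proteoglycans, which were picked by name, were all higher in nRBCs. Of related genes outside the 5, BGN (0.10), FMOD (-1.83), PRELP (-0.66) and THBS1 (-0.25) did not pass. None of these had a Present call on any blood array, so their differences are between signals below detection. Other relatives were detected. KERA was Present on 3 nRBC arrays and 1 RBC array and did not pass (1.97, limma adjusted p = 0.296). OGN and THBS2 were Present on at least 1 nRBC array and on no RBC array. Among the 92 genes, MMP2 aside, the fitted differences above 7 were all found among the 5. LUM (lumican, a small leucine-rich proteoglycan of collagen fibrils) measured 8.68 and 6.59 (E6 nRBC) and 9.81 and 10.74 (E4 nRBC), against -1.01 and 0.21 (E6 RBC) and 3.37 and -1.45 (E4 RBC). DCN (decorin, a proteoglycan of the same family) measured 10.27 and 7.31 (E6 nRBC) and 9.86 and 10.85 (E4 nRBC), against 0.83 and 0.03 (E6 RBC) and 1.39 and 4.25 (E4 RBC). Both were lowest among nRBC arrays on E6 replicate 2 and highest on E4 replicate 2, and they lie next to each other on chromosome 1 in the annotation of assembly GRCg7b. LUM differed by 8.68 (SE 1.17, limma adjusted p = 0.00285, at least 69.9-fold) and DCN by 7.95 (SE 1.02, limma adjusted p = 0.00216, at least 83.2-fold).

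FN1, fibronectin, which links cells to the matrix through integrins, had the narrowest spread over nRBC arrays of the 20 genes. It measured 10.70 and 10.37 (E6 nRBC) and 10.39 and 10.04 (E4 nRBC), against 3.30 and 6.13 (E6 RBC) and 5.50 and 3.55 (E4 RBC). The FN1 difference was 5.75 (SE 0.65, limma adjusted p = 0.00109, fitted 54.0-fold). POSTN, periostin, a matricellular protein known from heart valve mesenchyme and bone, measured 11.21 and 9.44 (E6 nRBC) and 11.03 and 10.05 (E4 nRBC), against 3.72 and 3.33 (E6 RBC) and 3.66 and 0.89 (E4 RBC). POSTN was Present on 2 RBC arrays and differed by 7.53 (SE 0.71, limma adjusted p = 4.3e-04). THBS4, a thrombospondin of tendon and muscle matrix, averaged 6.91 ± 1.01 in nRBCs and 1.72 ± 0.82 in RBCs (SD, n = 4 each), a difference of 5.19 (limma adjusted p = 0.00131, at least 17.7-fold), and was Present on 3 of the 4 nRBC arrays.

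Among basement membrane collagens, 2 of 9 passed on the chosen probe sets. COL18A1, a heparan sulphate proteoglycan collagen whose end fragment is endostatin, measured 9.54 and 7.90 (E6 nRBC) and 8.61 and 9.49 (E4 nRBC), against 3.76 and 1.55 (E6 RBC) and 4.12 and 4.61 (E4 RBC), and differed by 5.37 (SE 0.70, limma adjusted p = 0.00234, at least 36.2-fold). COL4A5, a type IV collagen chain, averaged 6.88 ± 0.53 in nRBCs and 3.19 ± 0.77 in RBCs (SD, n = 4 each), a difference of 3.69 (limma adjusted p = 0.00239, at least 11.8-fold). The other 7 genes of this role did not pass on the chosen probe set, and COL7A1, the anchoring fibril collagen, was lower on every nRBC array (4.17 to 5.72) than on any RBC array (5.87 to 6.78) with a difference of -0.97 (limma adjusted p = 0.274). ADAMTS8 was the other of 2 genes (2.17%) with that pattern, which 8.04% of all symbols showed.

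Among laminins, the trimeric proteins of the basement membrane, LAMB1 was the only chain called. LAMB1 measured 7.03 and 6.05 (E6 nRBC) and 7.14 and 7.22 (E4 nRBC), against 3.37 and 2.28 (E6 RBC) and 3.68 and 1.31 (E4 RBC), a difference of 4.20 (SE 0.57, limma adjusted p = 0.00300, at least 14.7-fold). LAMC1, the gamma chain shared by most laminins, was Present on all 9 arrays, with 11.09, 11.01, 11.59 and 10.72 on nRBC arrays and 10.93, 10.28, 10.38 and 10.31 on RBC arrays. Its fractions overlapped and the difference of 0.63 (SE 0.36) did not pass (limma adjusted p = 0.375). A further LAMC1 probe set that was also Present on all arrays gave 0.53 (limma adjusted p = 0.433). LAMA5, an alpha chain of epithelial and vessel basement membranes, was Present on the 4 nRBC arrays (4.18 to 6.24) and on no RBC array (-0.39 to 4.28), but its difference of 3.53 had a limma adjusted p of 0.0720. LAMA4, the vascular alpha chain, was Present on 4 nRBC arrays and 1 RBC array and differed by 0.75 (limma adjusted p = 0.462).

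Among the collagens that are neither fibrillar nor of the basement membrane, 3 were higher in nRBCs. COL14A1, which binds to the surface of collagen fibrils, measured 7.62 and 5.87 (E6 nRBC) and 8.38 and 8.26 (E4 nRBC), against -0.13 and 3.44 (E6 RBC) and 2.65 and 0.28 (E4 RBC), and differed by 5.97 (SE 0.90, limma adjusted p = 0.00480, at least 22.5-fold). COL23A1, a collagen that spans the cell membrane, averaged 7.94 ± 0.55 in nRBCs and 3.71 ± 1.32 in RBCs (SD, n = 4 each), a difference of 4.23 (limma adjusted p = 0.00546, at least 15.6-fold). COL6A3, a chain of the beaded filaments of type VI collagen, averaged 6.92 ± 0.58 in nRBCs and 4.87 ± 0.11 in RBCs. The difference was 2.05 (limma adjusted p = 0.0148, fitted 4.14-fold). The partner chains of COL6A3 were Present on all nRBC arrays and no RBC array and did not pass on the chosen probe sets, with differences of 2.66 for COL6A1 (limma adjusted p = 0.0806) and 1.38 for COL6A2 (limma adjusted p = 0.172). A further COL6A1 probe set was called higher. The study removed genes with high heart expression from those its own test had called. Of the 23 genes of this group, 10 were Present on none of the 9 arrays.

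Of the proteases, 3 MMPs stood out. MMP2, the gelatinase that cuts type IV collagen and denatured collagen, had the lowest p of the 92 genes. It measured 9.48 and 8.04 (E6 nRBC) and 9.74 and 9.65 (E4 nRBC), against -0.13 and -0.13 (E6 RBC) and 1.09 and 1.66 (E4 RBC), a difference of 8.61 (SE 0.57, limma adjusted p = 1.2e-04, at least 88.1-fold). MMP16 and MMP24 are membrane-type MMPs, anchored at the cell surface. MMP16 measured 5.01 and 2.97 (E6 nRBC) and 6.42 and 5.38 (E4 nRBC), against 1.18 and 0.76 (E6 RBC) and 1.39 and 1.38 (E4 RBC), and differed by 3.77 (limma adjusted p = 0.0109, at least 4.53-fold). MMP24 averaged 5.81 ± 0.47 in nRBCs and 3.19 ± 1.25 in RBCs (SD, n = 4 each), a difference of 2.63 (limma adjusted p = 0.0415, at least 5.26-fold). The MMP24 call did not hold without any 1 of 6 arrays, namely any nRBC array, E6 RBC replicate 1 or E4 RBC replicate 2, where its difference was 2.46 to 2.82 and its limma adjusted p 0.0649 to 0.113, nor with array scale as a block (2.42, limma adjusted p = 0.0668).

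MMP15, a further membrane-type MMP, was Present on all nRBC arrays (6.39 to 7.10) and no RBC array (5.59 to 5.98) without overlap, but its difference of 0.97 did not pass (limma adjusted p = 0.164). MMP9, the gelatinase known from white blood cells, was Absent on all 9 arrays, as were the collagenase MMP13, the matrilysin MMP7 and the stromelysins MMP3 and MMP10. These are genes for which the arrays gave no detected signal in either fraction or in heart.

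ADAMTS proteases cut proteoglycans and procollagens, and a subset of them was Present in both fractions. ADAMTS6 was Present on all 9 arrays, at 6.65 to 8.33 on nRBC arrays and 7.54 to 8.78 on RBC arrays, and differed by -0.39 (limma adjusted p = 0.708). On its chosen probe set ADAMTS15 was Present on 4 nRBC arrays (5.85 to 7.35) and 3 RBC arrays (6.66 to 9.16) and not on heart. Its difference of -1.30 there did not pass in limma, while a further ADAMTS15 probe set was called higher. ADAMTS8 was Absent throughout and ADAMTS5, an aggrecan-cutting member, was Present on 2 nRBC arrays and on heart. ADAMTSL1, a secreted relative with no protease domain, had the lowest p of the ADAMTS and ADAMTS-like genes. It was Present on 3 nRBC arrays (4.17 to 6.37 over all 4) and no RBC array (0.67 to 3.64), and its difference of 2.79 did not pass (limma adjusted p = 0.0863).

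Probe sets of 1 gene often disagreed. Of the 256 probe sets, 38 were called higher and 0 lower. Among the 14 genes called on the chosen probe set that had several, POSTN alone had every probe set called, and in the other 13 at least 1 further probe set was not. Among the 72 genes not called, 8 had a further probe set called higher, namely ADAMTS15, ADAMTS9, COL11A1, COL12A1, COL4A1, COL4A2, COL6A1 and COL9A3. These 8 were singled out after their values were seen.

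The type IV collagen chains COL4A1 and COL4A2, the core of every basement membrane and neighbours on chromosome 1, gave opposite signs on different probe sets. The chosen COL4A1 probe set was Absent on all 9 arrays and averaged 3.21 ± 1.57 in nRBCs and 4.67 ± 0.34 in RBCs (SD, n = 4 each). A further one measured 5.48 and 4.70 (E6 nRBC) and 5.76 and 5.42 (E4 nRBC), against 2.86 and 1.59 (E6 RBC) and -0.32 and -0.13 (E4 RBC), and was Present on 3 nRBC arrays and on heart at 9.46. The difference was thus -1.46 (limma adjusted p = 0.301) on the chosen COL4A1 probe set and 4.34 (limma adjusted p = 0.00706, at least 5.97-fold) on the further one. For COL4A2 the chosen probe set was Present on 1 nRBC array and gave -0.65 (limma adjusted p = 0.393), while a further one, Present on all nRBC arrays and on no RBC array, averaged 6.25 ± 0.54 in nRBCs and 2.45 ± 0.55 in RBCs and gave 3.80 (limma adjusted p = 0.00113, at least 9.86-fold). For COL6A1 the further probe set averaged 5.13 ± 0.46 in nRBCs and 0.91 ± 0.65 in RBCs and gave 4.23 (limma adjusted p = 7.2e-04, at least 5.16-fold). With the most often Present probe set in place of the brightest, 22 of the 92 genes were higher. Of the 92, 53 had a Present call on some nRBC array and 19 on some RBC array. Choosing by Present calls thus favours probe sets detected in nRBCs, and the 22 follows in part from that choice.

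**Figure D3:**
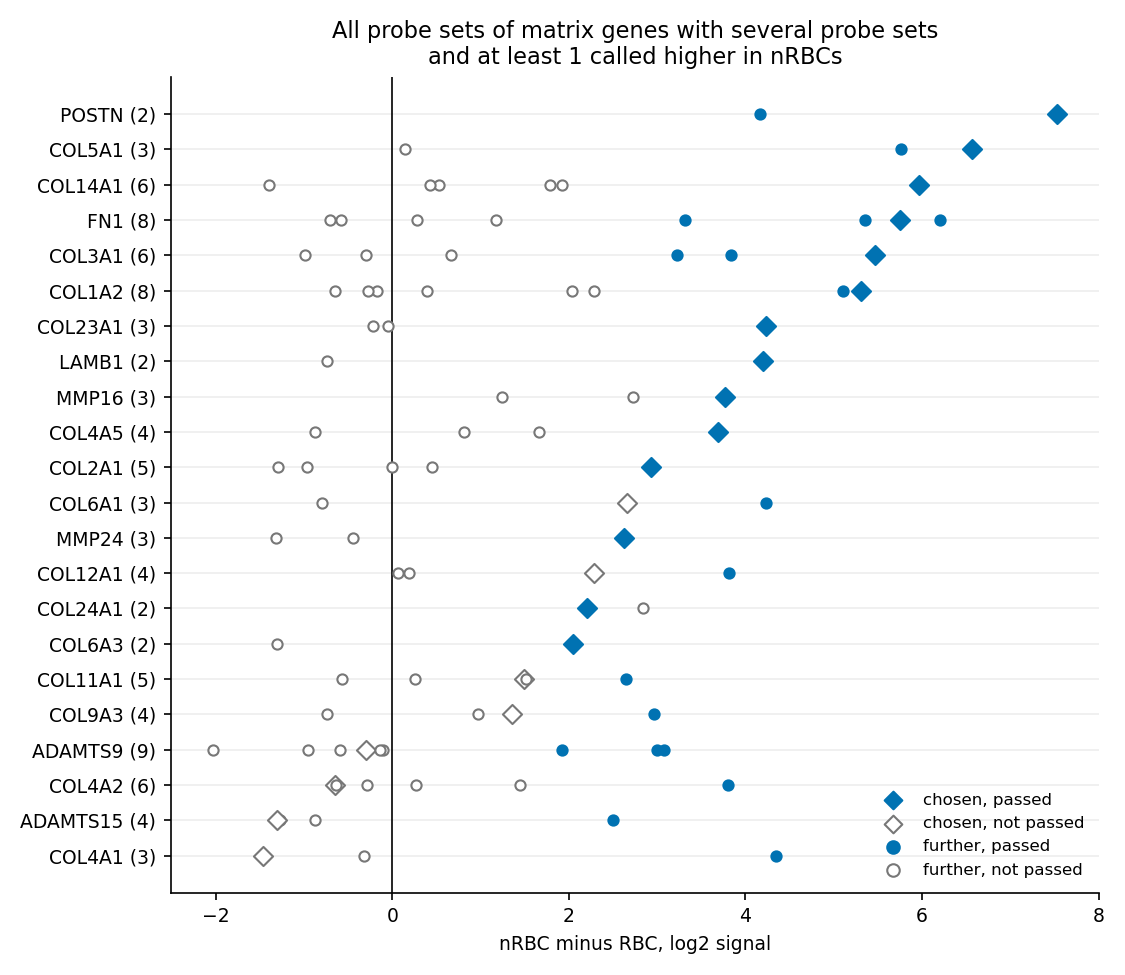
The difference nRBC minus RBC in log2 signal (x axis) is plotted for every probe set of the 22 genes with several probe sets and at least 1 called higher in nRBCs; diamonds are the chosen probe sets, circles the further ones, and filled symbols passed the test. POSTN is the only gene with all symbols filled, and COL4A1, COL4A2, ADAMTS9 and ADAMTS15 have a chosen probe set left of 0 and a further one called right of it.

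The 4 nRBC arrays did not carry these transcripts evenly. E6 replicate 2 was the lowest nRBC array for 19 of the 20 called genes, whereas it was lowest for 52.6% of all symbols called higher in nRBCs. FN1 was the exception, lowest on E4 replicate 2. The median deviation of E6 replicate 2 from the mean of the 4 nRBC arrays was -0.99 over the 20 genes, against -0.33 over all called symbols, and reached -2.36 for LUM and -2.26 for DCN. The SD over nRBC arrays had a median of 0.78 for the 20 genes and 0.53 for all called symbols. Without this array 19 of the 92 genes were higher, and the share over all symbols was not counted for that fit.

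**Figure D4:**
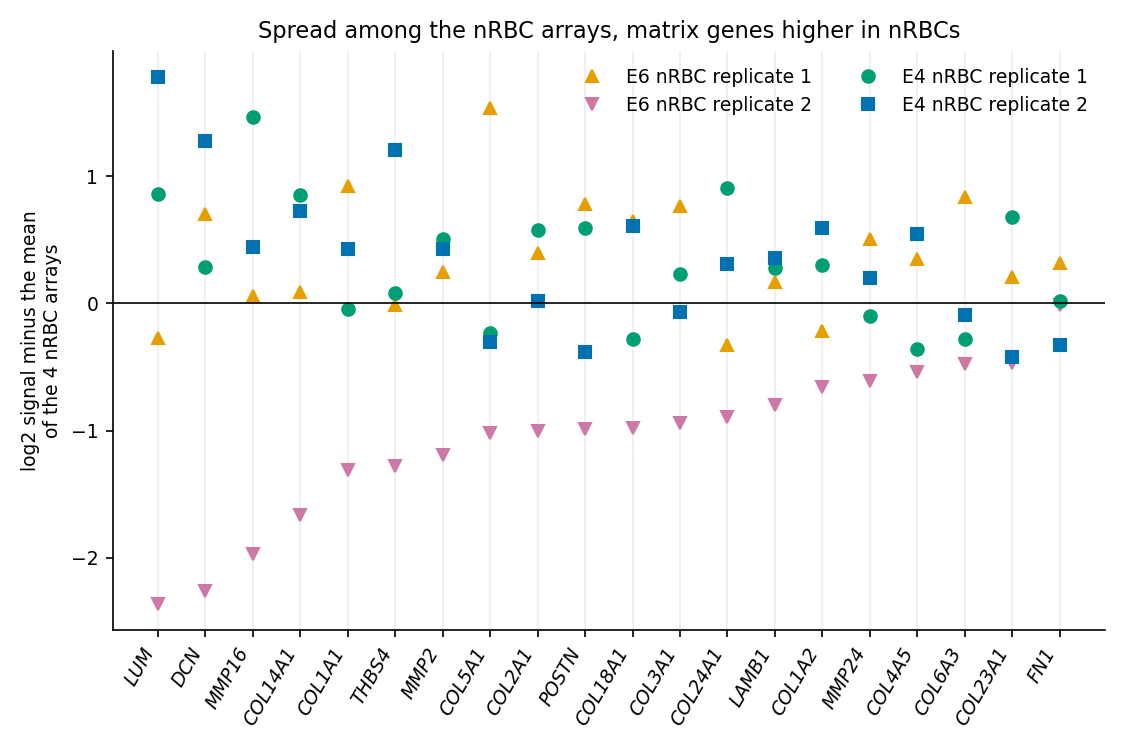
For the 20 genes higher in nRBCs, the log2 signal of each nRBC array minus the mean of the 4 nRBC arrays is plotted on the y axis, with 1 symbol per array and genes ordered by the value of E6 replicate 2. E6 replicate 2 lies lowest for all genes except FN1, from -2.36 for LUM to -0.01 for FN1.

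Marker lists of other cell types were set beside these genes. Mesenchymal markers other than the 92 genes (15 measured, 6 higher in nRBCs) had summed linear signals of 3030 and 1150 on the E6 nRBC arrays and 2830 and 3470 on the E4 nRBC arrays, against 882 to 1290 on RBC arrays and 4910 on heart. These sums include S100A10, at 9.06 to 10.12 on nRBC arrays and 9.22 to 9.94 on RBC arrays. All 6 of those called were lowest on E6 nRBC replicate 2, with a median deviation of -1.35, but stood above the RBC arrays there. The margin was widest for CDH11 (7.04, against at most 3.64 on RBC arrays) and TWIST1 (6.23, against at most 2.69). It was narrowest for ALDH1A2 (6.46, against at most 5.95) and PRRX1 (5.97, against at most 5.29). As the 6 were called for being higher in nRBCs, a place above the RBC arrays follows in part from that choice. PDGFRA was Present on heart and on no nRBC array, and THY1, FSTL1 and ACTA2 were Absent on all nRBC arrays and on heart. Cardiac muscle markers (21 measured, 9 higher) summed to 5940 and 1950 on the E6 nRBC arrays and 1860 and 1420 on the E4 nRBC arrays, against 281 to 426 on RBC arrays and 72600 on heart.

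The cardiac markers had another order over the nRBC arrays. All 9 called cardiac genes were highest on E6 nRBC replicate 1 and only 1 of the 9 was lowest on E6 replicate 2, and HAND2, PLN and RYR2 were Present on heart and on no nRBC array. TBX5 and TNNI1 were Present neither on any nRBC array nor on heart. Of the 20 matrix genes, 8 were highest on E6 nRBC replicate 1, 6 on E4 replicate 1 and 6 on E4 replicate 2. Of all 892 symbols called higher, 331, 139 and 343 were highest on these arrays. Among called endothelial markers 4 of 7 were lowest on E6 nRBC replicate 2, and among called non-red blood markers 5 of 7. That array was lowest for 52.6% of all called symbols. The median deviations there were -0.37 for the endothelial and -0.25 for the non-red blood markers, against -0.33 over all called symbols. Endothelial markers (17 measured, 7 higher) summed to 918 to 1760 on nRBC arrays, 392 to 882 on RBC arrays and 2820 on heart. Of the 17, 0 were Present on any RBC array, so the RBC sums are made of signals below detection. TIE1 and SOX18 were Present on heart and on no nRBC array, and PECAM1, EMCN, ESAM, NFATC1 and ROBO4 were Present on neither. The part of these other cell types in the matrix values was not tested.

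Set against the heart, every one of the 20 genes was lower in nRBCs. The nRBC mean lay below the heart array for 20 of 20, against 64.1% of all symbols called higher in nRBCs, and all 4 nRBC arrays lay below it for 16 of 20, against 50.4%. All 20 were Present on heart, as were 90.2% of all called symbols. The median of nRBC mean minus heart was -1.90 for the 20 genes and -0.62 for all called symbols. With 1 heart array there is no spread for this comparison and no test. The nRBC mean also pools E4 and E6 arrays, while the heart was E6. The ratio of 3' to 5' GAPDH signal was 2.08 on heart and 4.22 to 12.7 on nRBC arrays. The part of either in the gap was not tested.

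The gap to the heart differed between genes. It was -3.26 for COL23A1 (nRBC mean 7.94, heart 11.20), -3.22 for COL1A2 (8.88, heart 12.10), -2.76 for LAMB1 (6.86, heart 9.62) and -2.69 for COL5A1 (7.81, heart 10.50). At the other end were COL6A3 at -0.28 (6.92, heart 7.20), LUM at -0.56 (8.96, heart 9.51) and THBS4 at -0.82 (6.91, heart 7.74). LUM exceeded the heart on both E4 nRBC arrays, and without E6 nRBC replicate 2 its nRBC mean lay above the heart, by 0.23. COL6A3, MMP16 and THBS4 also had an nRBC array above the heart. For the marker lists the median of nRBC mean minus heart was taken over all genes measured, called or not. It was -5.07 for the 21 cardiac muscle markers, -0.74 for the 15 mesenchymal markers and -0.76 for the 17 endothelial markers, against -0.47 for all 92 matrix genes. For the 8 non-red blood markers it was 3.08 and for the 7 red cell markers 3.83.

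**Figure D5:**
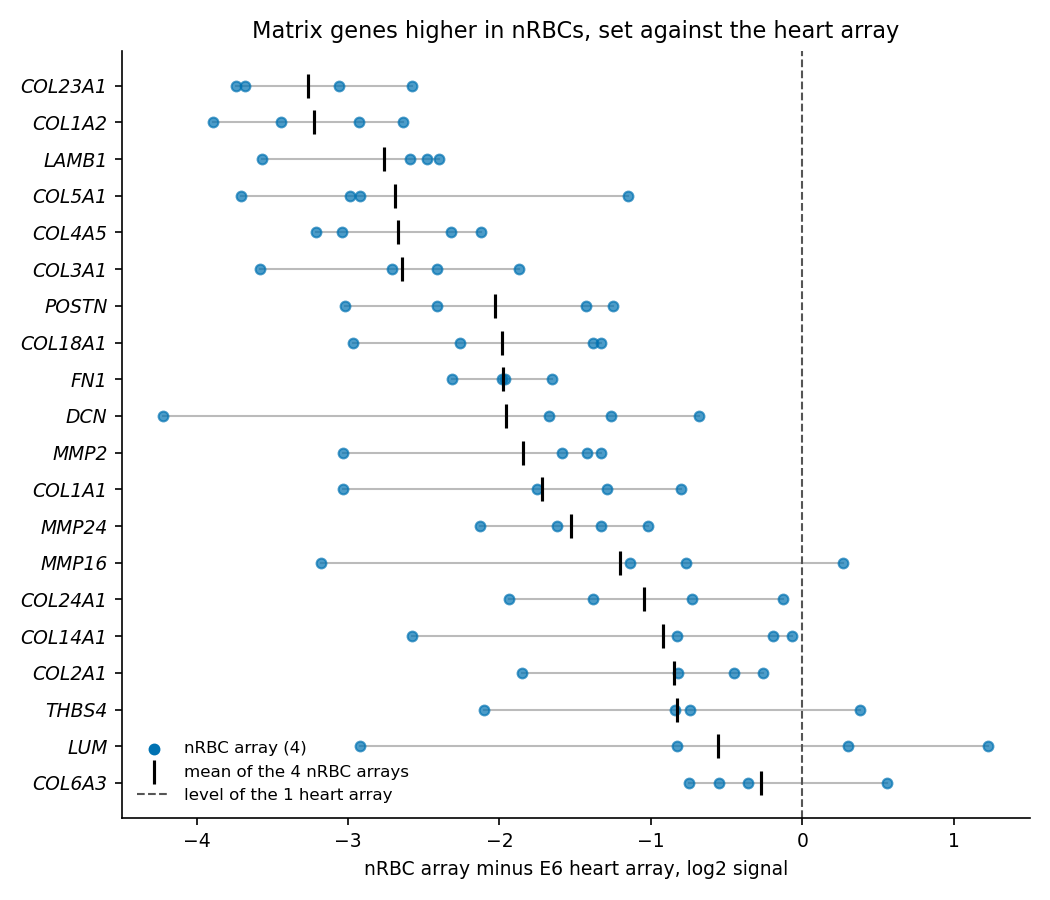
Each of the 4 nRBC arrays (blue points) and their mean (black bar) is plotted as log2 signal minus that of the 1 heart array (x axis, heart at the dashed line) for the 20 genes. All 20 means lie left of 0, from -3.26 for COL23A1 to -0.28 for COL6A3, and 4 genes have a point right of 0.

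Over all 92 genes, 54 had an nRBC mean below the heart (58.7%, against 45.3% of all symbols). All 5 laminin alpha chains were among them by sign. LAMA5 (nRBC mean 5.15, heart 7.85) and LAMA4 (4.84, heart 7.51) lay 2.70 and 2.67 below the heart on the log2 scale. Both were Present on all nRBC arrays and on heart. LAMA1 was Present on heart and Absent on every nRBC array. LAMA2 and LAMA3 were Absent on every nRBC array and on heart, so their place below the heart compares signals below detection. Of the 92 genes, 6 (6.52%) were Present on heart and on no blood array, against 3.69% of all symbols, and those Present on some blood array and not on heart were 10, among them ADAMTS15 with an nRBC mean of 6.60 and a heart value of 5.95.

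Between the stages no gene passed. In limma with 4 group means, 0 of the 92 genes and 0 of all probe sets differed between E6 and E4 in nRBCs, in RBCs or in the difference of the fractions at an adjusted p under 0.05. At an unadjusted p under 0.05 the counts were 7 in nRBCs (7.61%, against 2.94% of all symbols), 6 in RBCs (6.52%, against 7.23%) and 6 for the difference (6.52%, against 3.74%). With 2 arrays per group, p-values rest on few degrees of freedom. The lowest unadjusted p in nRBCs was that of COL15A1, a basement membrane zone collagen, at 1.18 and 1.83 on E6 arrays and 3.49 and 4.13 on E4 arrays, all with Absent calls. In RBCs and for the difference it was that of COL4A6, likewise Absent on all blood arrays, with limma adjusted p values of 0.288 and 0.687.

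For 17 of the 20 genes called higher in nRBCs the E6 nRBC mean was below the E4 nRBC mean, against 61.7% of all symbols called higher, and the 2 E6 arrays differed in this. E6 replicate 2 lay below the E4 mean for 19 genes, against 74.4% of all called symbols, and E6 replicate 1 for 9, against 47.2%. Both E6 arrays lay below both E4 arrays for 8 genes, namely COL14A1, COL1A2, COL24A1, LAMB1, LUM, MMP16, MMP2 and THBS4, against 26.1% of all called symbols, and above both for 0, against 9.19%.

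The other genes of the matrix pathway were counted from lists, 1 probe set per gene, beside the 6.86% of all symbols called higher. Collagen processing enzymes gave 2 of 21, the lysyl hydroxylase PLOD2 (7.15 ± 0.75 in nRBCs and 2.62 ± 0.97 in RBCs, limma adjusted p = 0.00216) and CRTAP, a partner of prolyl 3-hydroxylase. Other basement membrane genes gave 3 of 14 (FBLN2, SPARC and FBLN1). Other matrix genes gave 7 of 37, among them the proteoglycan VCAN, which is abundant in the heart cushions, and LTBP1, which binds latent TGF-beta. VCAN averaged 7.41 ± 0.93 in nRBCs and 2.93 ± 0.88 in RBCs, with 10.71 on heart (limma adjusted p = 0.00273). In all of these lists 0 genes were lower.

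Matrix receptors and protease inhibitors gave more calls than the enzymes. Receptors gave 9 of 24, namely the integrins ITGB3, ITGA6, ITGA2, ITGAV, ITGB1 and ITGB5 with CD36, SDC1 and CD44. Of these, ITGB3, ITGA6, ITGA2, ITGAV and CD36 stood in the gene list that the study chose on these same arrays. Their calls are thus no independent evidence. Of the 9, 5 had an nRBC mean above the heart and ITGB1 (-0.29), ITGB5 (-1.10), SDC1 (-0.59) and CD44 (-0.06) lay below it. ITGB3, the platelet and thrombocyte integrin, was higher in nRBCs (12.09 ± 0.36) than on heart (7.69), as was the collagen receptor ITGA2 (8.27 ± 0.60 in nRBCs, which lay 4.78 above the heart). Inhibitors gave 3 of 9, of which TIMP3, an inhibitor of MMPs and ADAMTS proteases, was Present on all 9 arrays and averaged 10.69 ± 0.59 in nRBCs and 8.56 ± 0.49 in RBCs, with 7.11 on heart (limma adjusted p = 0.0216). TFPI2 and SERPINB2 were the other two, with SERPINB2 at 8.15 ± 0.52 in nRBCs and Absent on heart. Other proteases gave 1 of 19, the serine protease PRSS23 (7.81 ± 0.78 in nRBCs and 4.02 ± 0.99 in RBCs, limma adjusted p = 0.00580). Again 0 genes of these lists were lower. CD36 and ITGB3 also stand in the list of non-red blood markers.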

How the data were processed

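RNA of the 8 blood arrays and the 1 heart array was labelled over 2 cycles and hybridised to the Affymetrix chicken array. The authors deposited MAS5 signal intensity values on a linear scale (array medians 11.4 to 33.3) and detection calls. Which MAS5 version they ran is not stated in the sources used here. The deposited series matrix holds log2 values that equal log2 of these signals minus a constant per array (largest deviation 1.3e-06), with column medians of -0.14, -0.24, -0.22 and -0.24 for the nRBC arrays, -0.16, -0.14, -0.23 and -0.21 for the RBC arrays and -0.25 for heart, and served as an alternative. Groups came from the sample titles.

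Of 38535 probe sets, 96 controls were left out and 38439 tested without a detection filter. Signals of 0 (11 on the blood arrays) were set to 0.1. Quantile normalization of the log2 signals used the 8 blood arrays, and heart values were placed on the resulting distribution. The nRBC and RBC fractions were compared in limma 3.58.1 (R 4.3.3; lmFit and eBayes, stages pooled, Benjamini-Hochberg adjustment). The study used SAM, which was not run here. Of the probe sets, 27168 had 1 symbol, 177 several and 11094 none, and 23 of the 92 chosen probe sets carry a suffix for sequence shared between transcripts. The code was tested on simulated data.

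The genes and lists were chosen with earlier results of these data known. Genes were named if they passed in nRBC against RBC, had one of the 5 lowest p of their role or of the 4 lowest of a stage contrast, one of the 6 largest differences from heart in each direction, Present calls on all RBC arrays, or one of the 4 lowest p of a pathway list, or were LUM, DCN, FN1, POSTN or THBS4; further genes named for context were chosen after their values were seen. Duplicate arrays came from separate pools, so p-values of nRBC against RBC rest on the spread over 4 pools per fraction, 2 at each stage. As the stages were pooled with no stage term, that spread includes any difference between stages. Array pairs were compared (36 pairs, 0 identical). Arrays of 1 stage and number did not deviate together (r = 0.08 at E4, -0.05 at E6), so numbers were not used as pairs. The number of arrays limits the precision. Neighbouring genes were read from the annotation of assembly GRCg7b, and no probe set coordinates were used.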

Additional observations from a re-analysis of the deposited data

Results flagged for a closer look

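In 7 of 112 groups of 4 arrays, 1 array lay far from the other 3 (the gap over the group's whole range was above Dixon's critical value for 4 samples). Chance flags about 1 in 20 groups. In nRBCs, E6 replicate 2 lay low for LAMB1 (6.05, others 7.03 to 7.22), MMP2 (8.04, others 9.48 to 9.74) and ADAMTS5 (3.45, others 4.57 to 4.72). E4 nRBC replicate 1 lay low for the chosen COL4A1 probe set (0.87, others 3.75 to 4.28), which was Absent on all arrays. In RBCs, POSTN was low on E4 replicate 2 (0.89, others 3.33 to 3.72), LAMC1 was high on E6 replicate 1 (10.93, others 10.28 to 10.38), and MMP27, Absent on all arrays, was high on E4 replicate 2 (4.49, others -1.01 to -0.61).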

How the results depend on the processing

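The count of genes higher in nRBCs, 20 of 92, was 18 to 21 when each blood array was left out in turn and 14 to 30 under 14 other settings. It was 19 without normalization, 20 with median scaling, 25 with 16 added to each signal, 26 when only probe sets with 2 or more Present calls in blood were tested, 19 with the replicate block, 14 within the 5 arrays with many signals under 1, 30 with the methods' t-test unadjusted and 17 with that test after Benjamini-Hochberg. The share of all symbols called was not counted under these settings. The counts are thus not read as results about the matrix genes. The filter keeps genes Present in nRBCs alone, so the 26 follows in part from that choice. Under all 22 settings 12 genes kept the call; 8 lost it within the 5 arrays, of which COL14A1 (6.03, adjusted p = 0.0618), LAMB1 (3.21, 0.0520) and LUM (7.18, 0.0898) lost it nowhere else. COL2A1 (2.24, 0.196), COL6A3 (1.99, 0.205) and MMP16 (3.51, 0.201) also lost it at an adjusted p under 0.01, COL6A3 with the replicate block (adjusted p = 0.0555) and MMP16 with the methods' t-test after adjustment (0.0507). COL24A1 and MMP24 lost it under 11 and 10 settings. The count lower was 0 throughout, except for 2 with the unadjusted t-test. Stage counts were 0 under each of their settings and leave-one-out fits. The count with the nRBC mean below heart, 54 of 92, was 52 to 55 when an nRBC array was left out and 45 to 57 otherwise. The 45 was out of the 59 genes Present on heart or on at least 1 nRBC array, and not out of 92. Among called genes it was 19 to 20 and 20 to 22. The 22 was out of the 22 genes called with the most often Present probe set.

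Signs turned for uncalled genes and for LUM against heart. Without normalization, nRBC minus RBC was 0.08 for ADAMTS13, 0.08 for ADAMTS6 and 0.09 for LAMB3; with median scaling it was -0.01 for ADAMTSL3. Without E4 nRBC replicate 2 it was -0.16 for ADAMTSL3, -0.12 for COL15A1 and 0.02 for LAMB3, and without E6 RBC replicate 1 it was 0.01 for LAMB3. MMP10 turned to 0.30, 0.33 and 0.10 without E6 nRBC replicate 2, E4 RBC replicate 1 and E4 RBC replicate 2. Within the 5 arrays COL4A3BP was -0.01. With the most often Present probe set ADAMTSL3 was -0.48, COL4A1 4.34 and COL4A2 3.80. Without E6 nRBC replicate 2, nRBC minus heart was 0.23 for LUM. Over the fits that each left out 1 array, the values ran between -0.16 and 0.46 for ADAMTSL3, -0.12 and 0.85 for COL15A1, -0.34 and 0.02 for LAMB3, -0.66 and 0.33 for MMP10, and, for LUM against heart, -1.15 and 0.23. The cause was not tested, except that the probe set alternative uses another probe set.

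Normalization moved the median difference of all probe sets, which was -0.20 here, 0.02 without it and -0.25 with median scaling. Arrays fell into 3 with 188 to 256 signals under 1 and 5 with 1182 to 2172; the 3 comprise 1 nRBC and 2 RBC arrays, too few for calls to be read from them. The ratio of 3' to 5' GAPDH signal was 4.22 to 12.7 in nRBCs, 9.44 to 11.1 in RBCs and 2.08 in heart.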

Other observations

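Genes of these families that lie next to each other in assembly GRCg7b did not all behave alike. LUM and DCN were both higher in nRBCs. COL3A1 was higher and its neighbour COL5A2 did not pass (differences of 5.47 and 0.80), LAMB1 was higher and LAMB4 was Absent on all 9 arrays, and COL4A5 was higher while COL4A6 was Absent on the blood arrays and Present on heart. The run of MMP13, MMP10, MMP3, MMP1, MMP27 and MMP7 on chromosome 1 had 1 Present call on the 9 arrays, for MMP1 on E6 RBC replicate 1. COL9A3, a cartilage collagen chain, was Present on all nRBC arrays, on 2 RBC arrays and on heart (nRBC mean 5.80, heart 8.59). Its difference between the fractions was 1.36 and did not pass (limma adjusted p = 0.198). COL9A1 and COL9A2, the other chains of that collagen, were Absent on all 9 arrays.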
